A study of Mus musculus with 2 samples.

Results

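Immune checkpoint receptors and ligands are described here across a pair of mouse melanoma sections. The members are a given list of 10 genes, Pdcd1, Lag3, Tigit, Havcr2, Cd274, Vsir, Lgals9, Cd276, Cd200 and Cd47, and all 10 are among the 19465 genes of the count matrices. B16.F10, a pigmented melanoma line, was grown in mice 8 to 16 weeks old, and tumours of similar size were taken on day 15, fixed in formalin, embedded in paraffin and cut at 10 µm. The KO section came from a Foxp3-Cre × CK2b-fl/fl mouse and the WT section from a mouse whose sample is titled Csnk2bfl/fl, while its genotype label reads wild-type and names no Cre. Cre is driven by Foxp3 and so acts in regulatory T cells, while tumour cells and the other cells of the host keep Csnk2b, the regulatory subunit gene of protein kinase CK2. Both groups are labelled untreated.

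Visium CytAssist reads pairs of gene-specific probes from fixed tissue on a grid of spots, and a spot is a small area that can hold several cells. The KO section held 2746 spots and 94422680 unique molecular identifiers (UMIs), with a median of 36769 per spot, and the WT section 3066 spots and 88735936 UMIs, with a median of 26818.5. The sections share 2138 spot barcodes, which name positions of the same capture layout. Csnk2b stood at 392 CPM (UMIs per 1000000 of the section's total) in the KO section and 392 CPM in the WT section, a sum that does not check a deletion limited to regulatory T cells. All 15 melanocytic marker genes in the matrix lay above 2 times the probe background in both sections. That background, the median of 16 genes of unrelated organs, was 43 UMIs (0.455 CPM) in the KO section and 20 UMIs (0.225 CPM) in the WT section. Single genes of the 16 ran from 22 to 355 UMIs in KO and from 8 to 333 UMIs in WT. Summed marker lists differed between the sections: the T cell list was 2.24 times, the macrophage list 0.711 times and the fibroblast and matrix list 0.169 times as high in the KO as in the WT section. With 1 section per genotype there is no replicate, so no p-value or standard error is given, and intervals cover counting error at 95% only. The range over the 4 quadrants of a section shows its inner spread. Spot sums cannot tell fewer cells of a kind from less RNA per cell.

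Checkpoint molecules restrain T cells and phagocytes. A T cell that meets antigen displays inhibitory receptors such as PD-1 (Pdcd1), LAG-3, TIGIT and TIM-3 (Havcr2), and tumour, myeloid or stromal cells display the ligands, among them PD-L1 (Cd274), galectin-9 (Lgals9) and B7-H3 (Cd276). PD-L1 is a textbook target of interferon γ. CD47 is a signal to phagocytes that binds SIRPα, CD200 restrains myeloid cells through its receptor, and VISTA (Vsir) is found chiefly on myeloid cells. B16 melanoma is known as a tumour with few T cells.

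Promoter sequence was examined because Cd274 followed interferon γ genes across the tissue, as the values further on show. A window of 250 bases before to 50 after the start was present in the RefSeq tables (GRCm38.p6) for 9 members, Lag3 being the other. The gamma-activated sequence was searched as TTCNNNGAA, which reads the same on either strand. It stood in 8.30% of 32851 promoter windows, in 3 of 15 type I and 10 of 20 interferon γ list genes with a window, and in no member. The 250 bases before the start used for the Cd274 window, on the plus strand at chr19:29367188-29367437, are shown. Cd274 is the member whose relation to interferon genes is measured here, and these bases held 0 matches. The RefSeq span of the gene begins further upstream, at 29362107. The printed bases thus lie inside that span, and the sequence before its outer end was not searched.
Cd274: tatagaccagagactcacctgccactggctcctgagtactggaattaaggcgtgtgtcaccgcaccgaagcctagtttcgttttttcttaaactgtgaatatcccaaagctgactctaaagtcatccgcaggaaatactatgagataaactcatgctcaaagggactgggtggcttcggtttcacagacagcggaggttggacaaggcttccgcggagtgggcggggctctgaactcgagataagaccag
A match is a run of letters and not a measured binding site, and a window without one says nothing of sites elsewhere.

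Section totals came first. Of the 10 members, 2 exceeded WT by 1.5-fold or more in KO tissue (Cd274 and Tigit) and 2 were lower by as much (Vsir and Cd276). Over all 16961 genes with at least 50 UMIs, 25.2% were as much higher and 9.98% as much lower, so 2 of 10 is below the first share and above the second. The median log2 ratio of the members was -0.11, against 0.15 for all genes tested. The quadrant ranges of the sections overlapped for all 10.

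Among the receptors, Pdcd1 (chromosome 1, 94038305 to 94052553), the receptor of PD-L1, gave 128 UMIs or 1.36 CPM in the KO section and 131 UMIs or 1.48 CPM in the WT section. The KO over WT ratio was 0.918, with an interval of 0.714 to 1.18 that includes 1. Among interior spots, those more than 2 grid steps from the tissue edge, it was 0.604, at 0.948 CPM in KO and 1.57 CPM in WT, lower by more than 1.5-fold. The sections differed in T cell RNA, and per 1000 UMIs of the T cell list there were 14.3 in the KO and 34.9 in the WT section, a ratio of 0.409 (0.318 to 0.526). Lag3 (chromosome 6, 124904359 to 124912434), a receptor that binds MHC class II, gave 135 UMIs or 1.43 CPM in KO and 92 UMIs or 1.04 CPM in WT, a ratio of 1.38 (1.05 to 1.82), and per 1000 T cell list UMIs 15.1 in KO and 24.5 in WT. Both genes lay above 2 times the median probe background in each section. Their counts were still within the range of single background genes, 22 to 355 UMIs in KO and 8 to 333 UMIs in WT. Few spots held either: 4.22% of KO and 3.72% of WT spots for Pdcd1.

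Tigit (chromosome 16, 43626137 to 43665125), a receptor of the nectin family ligands on T and NK cells, gave 35 UMIs in the KO and 18 in the WT section. These counts were 0.814 and 0.9 times the probe background, so its ratio of 1.83 (1.01 to 3.43) is not read as expression, and its spatial values are given only where a count of members includes it. Havcr2 (chromosome 11, 46454931 to 46481255), TIM-3, was measured well, with 1327 UMIs (14.1 CPM) in KO and 1335 UMIs (15.0 CPM) in WT. Its ratio was 0.934 (0.865 to 1.01).

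Cd274 (chromosome 19, 29362107 to 29388095), encoding PD-L1, gave 2472 UMIs or 26.2 CPM in the KO section and 1531 UMIs or 17.3 CPM in the WT section, a ratio of 1.52 (1.42 to 1.62). Its quadrants held 17.7 to 47.4 CPM in KO and 12.1 to 23.1 CPM in WT, so the lowest KO quadrant lay within the WT range. The ratio was 1.30 with TMM scaling and 1.14 among interior spots, both under 1.5. A UMI was found in 45.2% of KO and 33.6% of WT spots.

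Vsir (chromosome 10, 60346851 to 60430294) was the member with the widest gap, at 12.1 CPM in the KO and 32.9 CPM in the WT section, 2.71-fold lower in KO (2.53 to 2.90). Cd276 (chromosome 9, 58524300 to 58555033) stood at 10.2 CPM in KO and 21.5 CPM in WT, 2.095-fold lower (1.94 to 2.27). Vsir quadrants spanned 5.34 to 31.1 CPM in KO and 9.58 to 95.9 CPM in WT, and Cd276 quadrants 8.87 to 13.9 CPM in KO and 11.6 to 47.8 CPM in WT. For both genes 1 or more WT quadrants reached levels that no KO quadrant held.

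The remaining ligands differed little over whole sections. Lgals9 (chromosome 11, 78962979 to 78984924) stood at 219 CPM in KO and 254 CPM in WT, a ratio of 0.864 (0.848 to 0.881). Cd47 (chromosome 16, 49851328 to 49912503) stood at 72.9 CPM in KO and 76.3 CPM in WT, a ratio of 0.955. Cd200 (chromosome 16, 45382111 to 45409060) gave 3.39 CPM in KO and 4.11 CPM in WT, a ratio of 0.824 (0.707 to 0.960). Levels of different genes are not compared, since the number of probes per gene is not given in the sources used here.

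**Figure D1:**
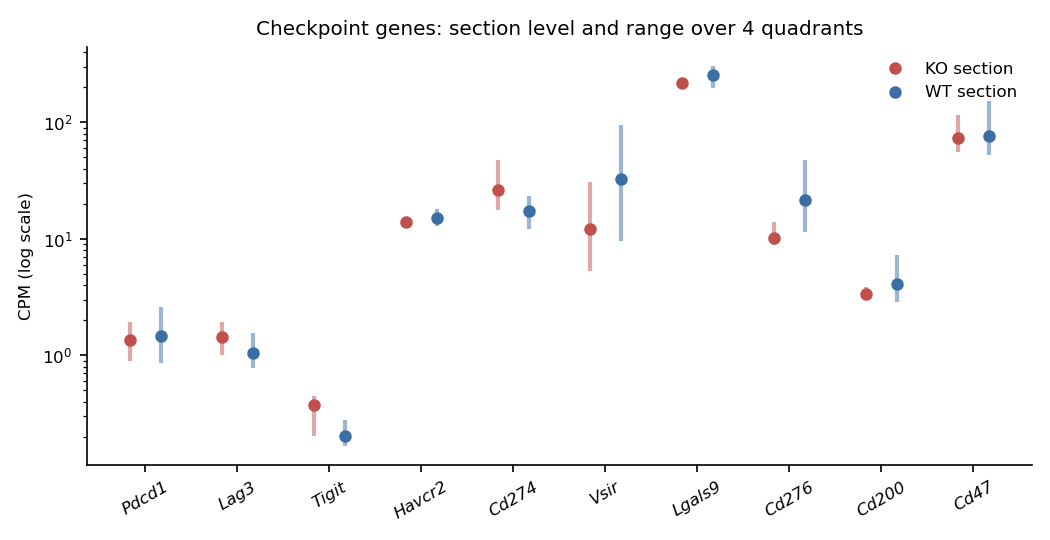
CPM (log scale) of each member, the KO section left and the WT section right of each label; points are section totals and bars the range over 4 quadrants. Cd274 sits at 26.2 in KO and 17.3 in WT, and Vsir at 12.1 in KO and 32.9 in WT; heights are to be read within a gene only.

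To place the members in the tissue, spots of each section were ranked by the share of their UMIs from a marker list, and the 25% with the highest share (rich spots) were set against the 25% with the lowest (poor spots). No member met the mark for a tumour-borne gene, a 1.5-fold higher level in melanocytic-rich spots. In melanocytic-rich spots 0 of 10 members were at least 1.5-fold higher in either section, against 15.0% of all genes in KO and 32.3% in WT, while 7 members in KO and 8 in WT were at least 1.5-fold lower, against 34.6% of all genes in KO and 34.6% in WT. Havcr2 came nearest to even in KO, at 14.6 CPM in both kinds of spot, and had 14.3 CPM in melanocytic-rich against 20.6 CPM in melanocytic-poor WT spots. Lgals9 came nearest in WT, at 213 against 286 CPM, and had 240 against 205 CPM in KO. Melanocytic-poor spots were shallow, with a median of 6052 UMIs in KO against 41921.5 in melanocytic-rich spots, and 11882.5 against 34608 in WT.

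Most members were higher where macrophage or matrix genes were. In macrophage-rich spots 7 members in KO and 9 in WT were at least 1.5-fold higher than in macrophage-poor spots, against 25.3% of genes in KO and 34.8% in WT. In matrix-rich spots the count was 8 in KO and 8 in WT, against 27.3% of genes in KO and 33.8% in WT. The T cell list gave 6 in KO and 7 in WT, against 14.8% and 19.8% of genes, the endothelial list 4 in KO and 2 in WT, against 9.13% and 15.0%, and the interferon γ list 8 in KO and 8 in WT, against 19.2% and 21.7%. T cell-poor spots include many with no T cell UMI, so their edge is set by the order of ties.

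A list was given to a member where it had the highest of 5 ratios in both sections. Over 5 alternative settings 4 to 7 members were given a list. The macrophage list led for Cd274, which stood at 77.9 CPM in macrophage-rich against 13.7 CPM in macrophage-poor KO spots and 31.2 against 11.5 CPM in WT, ratios of 5.67 (5.01 to 6.43) in KO and 2.71 (2.31 to 3.18) in WT. It led for Pdcd1 too, with 71 UMIs in rich and 13 in poor KO spots and 53 and 11 in WT, ratios of 10.8 (5.92 to 21.3) in KO and 13.9 (7.18 to 29.5) in WT. The T cell list gave Pdcd1 lower ratios of 4.58 in KO and 5.36 in WT. For both genes the matrix list came close, so the lead does not set the 2 lists apart. Cd274 stood at 68.8 CPM in matrix-rich against 13.2 CPM in matrix-poor KO spots and 27.8 against 10.8 CPM in WT. Pdcd1 stood at 5.88 against 0.686 CPM in KO and 5.34 against 0.526 CPM in WT.

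Vsir had the steepest contrast of the members. It stood at 65.5 CPM in matrix-rich against 1.95 CPM in matrix-poor KO spots and 165 against 3.59 CPM in WT, ratios of 33.6 in KO and 45.9 in WT. The macrophage list came close, at 25.6 in KO and 35.9 in WT, and the intervals of the 2 lists overlapped in each section. Cd47 was led by the matrix list with 3.52 in KO and 6.28 in WT. Cd276, a molecule known from tumour stroma and vessels, was led by it with 1.76 (1.43 to 2.17) in KO and 7.48 (6.60 to 8.49) in WT. Cd276 reached 80.9 CPM in matrix-rich WT spots, against 15.2 CPM in matrix-rich KO spots.

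Cd200, which endothelial cells are known to carry, was led by the endothelial list, with 177 UMIs in rich and 10 in poor KO spots and 228 and 18 in WT, ratios of 9.45 (5.02 to 20.1) in KO and 6.31 (3.90 to 10.8) in WT. No list led in both sections for Havcr2, Lgals9, Lag3 or Tigit. The highest ratio of Havcr2 was 1.44 for the T cell list in KO and 1.74 for the macrophage list in WT, and that of Lgals9 was 1.18 in KO and 1.42 in WT with the same lists.

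**Figure D2:**
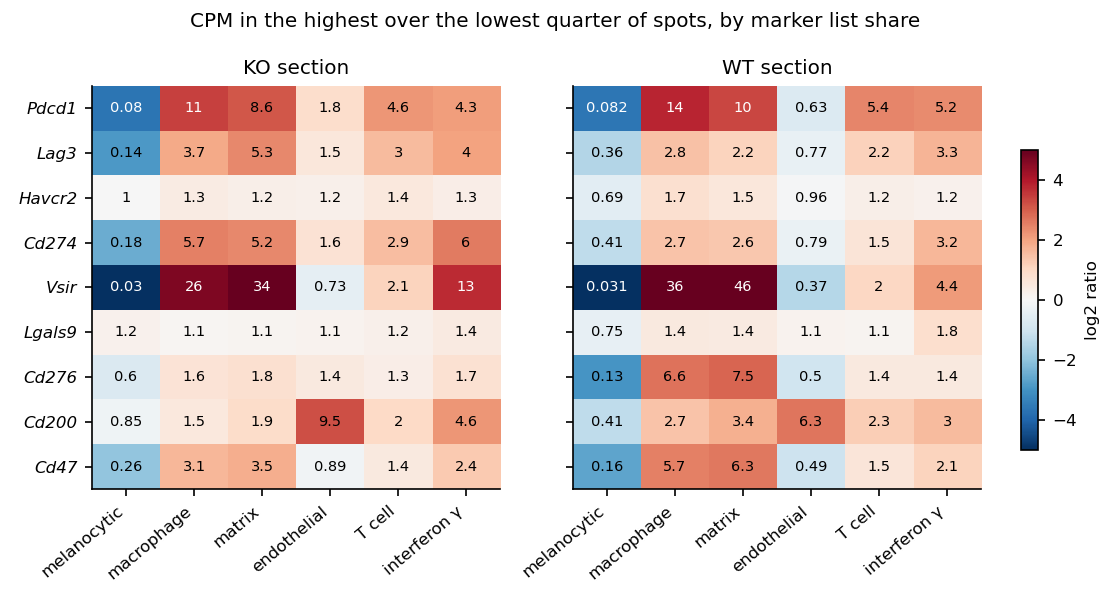
Ratio of CPM in the 25% of spots with the highest to the 25% with the lowest share of each marker list, KO section left and WT section right, coloured on a log2 scale with the ratio printed. Vsir reaches 33.6 (KO) and 45.9 (WT) for the matrix list, Cd200 9.45 (KO) and 6.31 (WT) for the endothelial list, and no member exceeds 1.5 for the melanocytic list; Tigit is left out for its low counts.

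Macrophage and matrix genes lie in much the same spots, so each list was ranked again within the 50% of spots with the lower share of the other. Among spots poor in matrix, the macrophage ratio of Vsir was 2.12 (1.33 to 3.47) in KO and 4.26 (3.08 to 5.98) in WT, far below the 25.6 and 35.9 over all spots. Among spots poor in macrophage genes, its matrix ratio was 3.80 (2.30 to 6.52) in KO and 6.71 (4.94 to 9.27) in WT. Cd274 had macrophage ratios of 1.62 (1.33 to 1.97) in KO and 1.61 (1.33 to 1.97) in WT among matrix-poor spots, and matrix ratios of 1.69 (1.37 to 2.102) in KO and 1.55 (1.26 to 1.91) in WT among macrophage-poor spots. For both genes each list thus had a ratio above 1 where the other was low, and every interval left out 1. By melanocytic share among matrix-poor spots, Havcr2 had ratios of 1.24 (1.01 to 1.52) in KO and 1.27 (1.04 to 1.55) in WT. Lgals9 had 1.30 (1.24 to 1.37) in KO and 0.740 (0.706 to 0.775) in WT. Cd274, Pdcd1, Vsir, Cd200 and Cd47 had intervals below 1 in WT, and no member reached 1.5 in either section.

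Spots of both sections were also put into 4 classes by shared limits of a list's share, so that spots of like makeup could be compared. Vsir, 0.369 times as high in KO over whole sections, had KO over WT ratios of 0.620, 0.998, 0.900 and 1.25 from the lowest to the highest matrix class. The macrophage classes gave 0.382, 0.895, 0.699 and 0.830. In the highest matrix class Vsir stood at 164 CPM in 318 KO spots and 131 CPM in 1135 WT spots. The whole-section gap in Vsir was thus smaller or turned among spots of like matrix share, and the KO section had fewer matrix-rich spots. Among spots of like T cell share it was not smaller, with ratios of 0.367, 0.245 and 0.284 along the classes that held spots. The part of tissue makeup in the gap was not tested.

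Cd274 had a ratio that grew along the classes: 1.17, 1.74, 2.05 and 4.06 by matrix share and 1.26, 1.56, 2.09 and 3.75 by macrophage share. In the highest macrophage class it stood at 117 CPM in KO and 31.3 CPM in WT spots. Per 1000 UMIs of the macrophage list Cd274 gave 17.2 in KO and 8.06 in WT, 2.13 times as many, and Vsir gave 7.97 in KO and 15.4 in WT. The receptors Pdcd1 and Lag3 also stood higher in KO there: Pdcd1 at 10.5 CPM (56 UMIs) in KO and 4.61 CPM (65 UMIs) in WT spots of the highest macrophage class, a ratio of 2.28 (1.57 to 3.31), and Lag3 at 8.45 CPM (45 UMIs) in KO and 1.99 CPM (28 UMIs) in WT, a ratio of 4.26 (2.60 to 7.08). In the highest matrix class the ratio was 2.75 (1.81 to 4.10) for Pdcd1 and 3.29 (1.82 to 5.79) for Lag3. By T cell share Pdcd1 went the other way, with a ratio of 0.623 (0.451 to 0.865) in the highest class, where Lag3 had 1.17 (0.760 to 1.84). Over whole sections the ratios were 0.918 for Pdcd1 and 1.38 for Lag3. Cd200 was 0.560 times (0.337 to 0.894) as high in KO in the highest macrophage class. Cd276 went the opposite way to Cd274, with 0.786, 0.815, 0.668 and 0.319 along the macrophage classes. Cd47, with a ratio of 0.955 over whole sections, had ratios of 1.42, 1.37, 1.40 and 1.72 along the matrix classes.

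Closeness to T cells was read from spots with at least 1 UMI of 6 T cell receptor genes after each spot was thinned to 5000 UMIs, which left out 356 KO and 395 WT spots. T cell spots numbered 423 against 1967 others in KO (17.7%) and 254 against 2417 in WT (9.51%). Their median depth was lower than that of the others, 35623 against 40723 UMIs in KO and 24944 against 30806 in WT. In T cell spots 7 members in KO and 6 in WT were at least 1.5-fold higher, against 16.0% of all genes in KO and 22.1% in WT. The summed probe background genes had ratios of 1.02 in KO and 0.990 in WT.

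Pdcd1 had the highest ratio, 4.18 CPM in T cell against 0.786 CPM in other KO spots and 5.18 against 1.14 CPM in WT, or 5.33 (3.68 to 7.70) in KO and 4.56 (3.03 to 6.75) in WT. Lag3 had 3.58 against 1.03 CPM in KO and 2.099 against 0.926 CPM in WT, ratios of 3.48 (2.42 to 4.99) in KO and 2.27 (1.21 to 3.98) in WT. Havcr2, although a T cell receptor by name, had ratios of only 1.14 (0.981 to 1.31) in KO and 1.34 (1.11 to 1.59) in WT. Lgals9 was nearly even, at 1.06 in KO and 1.08 in WT.

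Ligands were high near T cells as well. Cd274 stood at 51.3 against 20.6 CPM in KO, a ratio of 2.49 (2.28 to 2.71), and 25.3 against 16.3 CPM in WT, a ratio of 1.55 (1.32 to 1.81). Vsir had ratios of 3.43 in KO and 2.88 in WT, and Cd47 1.57 in KO and 1.66 in WT. T cell spots were also richer in macrophage genes, 2.17 times in KO and 2.11 times in WT, and in matrix genes, 2.51 times in KO and 2.89 times in WT.

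When the ratios were standardized over macrophage share, Pdcd1 remained at 3.24 in KO and 2.33 in WT and Lag3 at 3.0 in KO and 1.52 in WT. Cd274 was at 1.61 in KO and 1.13 in WT, Vsir at 1.43 in KO and 1.01 in WT, and Cd47 at 1.20 in KO and 0.899 in WT. Cd276, with unmatched ratios of 1.24 in KO and 1.73 in WT, was at 1.12 in KO and 0.874 in WT. The count at 1.5-fold or more was then 4 members in KO and 2 in WT, those 2 being Pdcd1 and Lag3. In KO they were joined by Cd274 and by Tigit (1.62, from 9 UMIs in T cell spots), which lies below the probe background. The share of all genes past that fold was not computed after standardizing. The T cell ratios of these genes, Pdcd1 and Lag3 included, were thus lower after matching on macrophage share. Pdcd1 and Lag3 alone stayed at 1.5-fold or more in both sections. Matrix share, also higher in T cell spots, was not matched, and the part of either list was not tested.

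Pdcd1 fell off beyond the T cell spots of both sections. It stood at 4.18, 0.928, 0.772 and 0.476 CPM at 0, 1, 2 and 3 or more steps from a T cell spot in KO, and at 5.18, 1.83, 0.989 and 0.807 CPM in WT. Lag3 gave 3.58, 1.03, 1.07 and 0.953 CPM in KO, and in WT a shallower 2.099, 1.25, 0.940 and 0.729 CPM from 15, 28, 19 and 28 UMIs. Havcr2 ran nearly flat, at 11.6 to 15.6 CPM in KO and 14.5 to 19.5 CPM in WT. Cd274 gave 51.3, 24.9, 17.4 and 15.2 CPM in KO and 25.3, 18.7, 18.7 and 13.7 CPM in WT. At 2 or more steps the sections were close for Cd274, and the gap between them lay in and beside T cell spots.

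**Figure D3:**
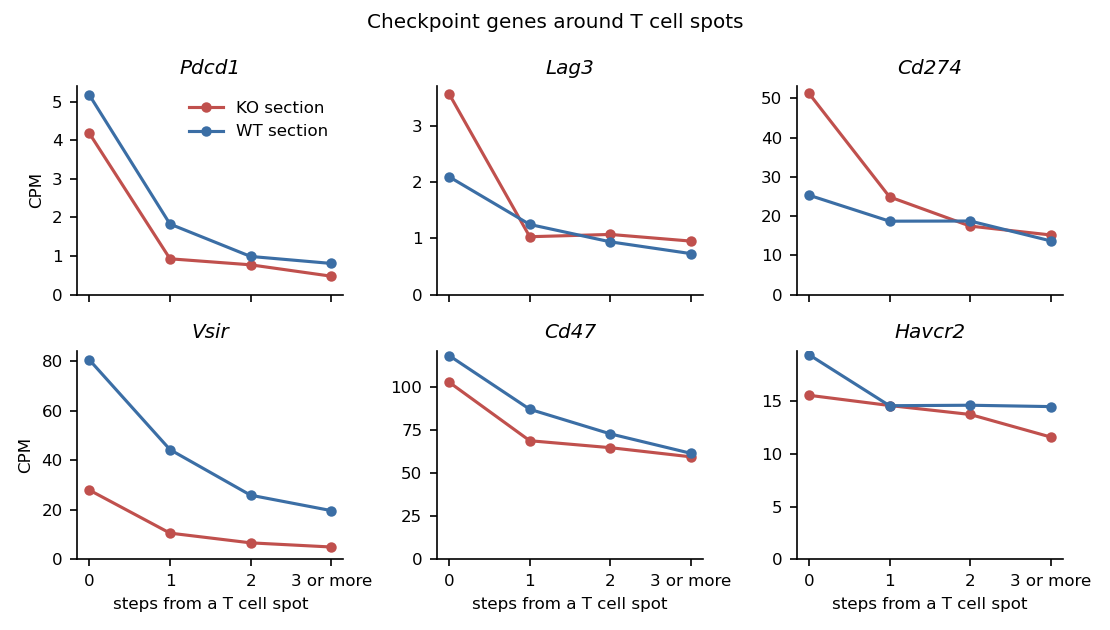
CPM of 6 members by hexagonal grid steps from the nearest T cell spot (0 is a T cell spot), KO and WT lines. Pdcd1 is far lower at 1 step in both sections and Lag3 in KO, with a shallower step in WT, Cd274 reaches 51.3 CPM at step 0 in KO and 25.3 in WT, and Havcr2 stays between 11.6 and 19.5 CPM.

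Edge profiles were read next. The rim (up to 2 grid steps in from empty positions or the border of the capture area) held 761 of the KO and 1364 of the WT spots. In the rim 6 members in KO and 3 in WT were at least 1.5-fold higher than in the interior, against 14.3% of genes in KO and 13.9% in WT. The 3 in WT were Vsir, Lag3 and Tigit, and Vsir alone had an interval that left out 1. Tigit, below the probe background, is among the 6 in KO too, with an interval that includes 1. Cd274 stood at 47.6 CPM in the rim against 19.8 CPM in the interior of the KO section, a ratio of 2.40 (2.22 to 2.61). In WT it was even, at 17.1 against 17.3 CPM, a ratio of 0.986 (0.887 to 1.09). Pdcd1 had ratios of 2.87 (1.99 to 4.13) in KO and 0.840 (0.571 to 1.22) in WT.

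Vsir was higher in the rim of both sections, 4.38 times (3.89 to 4.93) in KO and 1.65 times (1.54 to 1.78) in WT. Lag3 had 2.38 (1.66 to 3.396) in KO and 1.52 (0.988 to 2.34) in WT, and Cd47 1.58 in KO and 1.22 in WT. Cd276, Cd200, Havcr2 and Lgals9 stayed between 0.905 and 1.38 in both sections. Marker lists moved with the edge as well: macrophage genes were 2.81 times higher in the KO rim and 1.28 times in the WT rim, T cell genes 2.74 and 1.10 times, and interferon γ genes 1.98 times in KO and 0.854 times in WT. Their part in the members' profiles was not tested.

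From the first step inwards, Cd274 gave 52.3, 43.1, 27.2, 18.4, 17.4 and 16.0 CPM in KO, in bins of 1, 2, 3 to 4, 5 to 7, 8 to 11 and 12 or more steps. The WT section gave 17.7, 16.4, 17.9, 18.8, 14.3 and 17.1 CPM in the same bins. From 5 steps inwards the sections lay close, and the KO excess sat in the outer 4 steps. Vsir was lower inwards in both, at 2.38 CPM in KO and 15.3 CPM in WT at 12 or more steps. Cd276 in WT peaked at 27.7 CPM at 3 to 4 steps, where matrix genes were also high, and stayed between 8.78 and 13.9 CPM in KO.

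**Figure D4:**
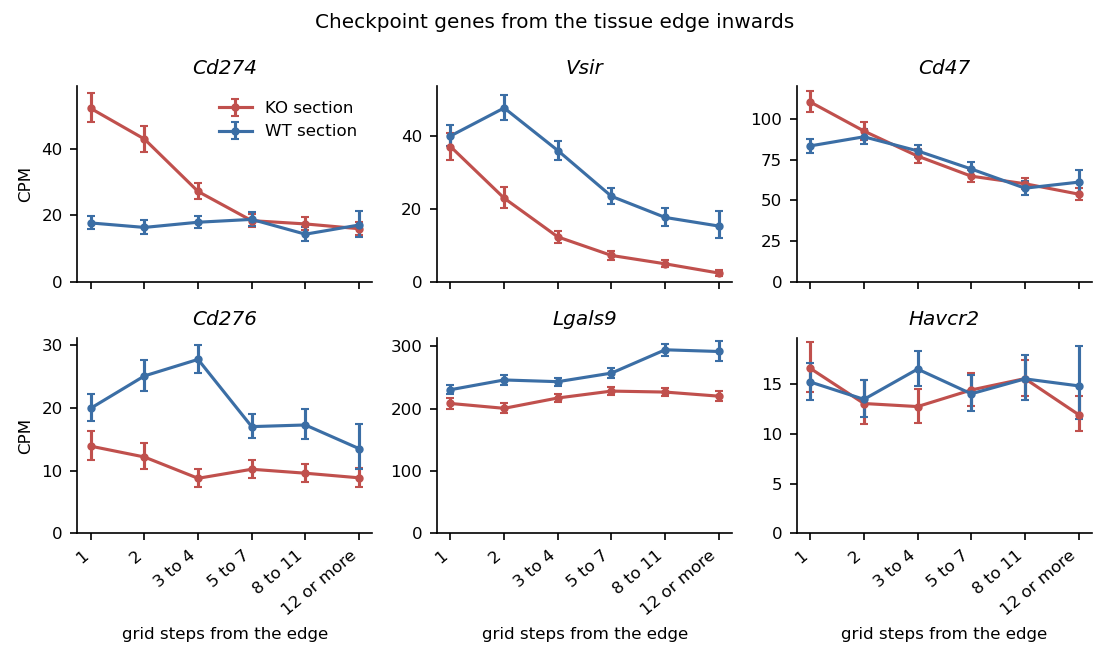
CPM of 6 members against grid steps from the tissue edge, KO and WT lines, bars being 95% counting intervals. Cd274 is at 52.3 CPM outermost and 16.0 CPM innermost in KO and stays between 14.3 and 18.8 CPM in WT. Lgals9 is no lower inwards, and Havcr2 in KO moves up and down between 11.96 and 16.6 CPM, with 15.6 CPM at 8 to 11 steps.

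Cd274 was set against interferon genes over spots and over tiles of 4 rows by 8 columns with at least 50000 UMIs, on the log2(CPM + 10) scale. Over spots its Pearson correlation with the summed interferon γ list of 24 genes was 0.275 over 2746 KO spots and 0.180 over 3066 WT spots, ranging over quadrants from 0.132 to 0.501 in KO and 0.080 to 0.391 in WT. Over tiles, where counts are less sparse, it was 0.811 over 183 KO tiles and 0.504 over 210 WT tiles. The points of a section share 1 library and differ in depth and tissue makeup. Cd274 correlated over tiles with the macrophage list too, at 0.745 in KO and 0.422 in WT, and with the probe background genes at -0.041 in KO and -0.036 in WT.

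Cd274 was higher with interferon γ share, most of all in the highest class. In KO it stood at 12.9, 13.9, 18.9 and 77.3 CPM over the 4 classes from low to high share, and in WT at 10.2, 12.6, 16.4 and 32.8 CPM. With shared limits the KO over WT ratio was 1.24, 1.35, 1.22 and 2.55 along the classes. Over tiles all 24 interferon γ genes correlated above 0 with Cd274 in both sections, with medians of 0.714 in KO and 0.428 in WT. The share of all genes above 0 was not computed, so the count is not read as particular to this list. Lists of other kinds correlated with Cd274 too, the matrix list at 0.704 in KO and 0.424 in WT. The T cell list stood at 0.701 in KO and 0.358 in WT. Ranked by the lower of a gene's correlations in the 2 sections, the rule used for all likeness, the closest were Psmb8 (0.779 in KO, 0.540 in WT), a subunit of the immunoproteasome, and the guanylate-binding proteins Gbp2 (0.789 in KO, 0.534 in WT) and Gbp7 (0.748 in KO, 0.517 in WT). In KO alone Irf1, an interferon-induced transcription factor, was highest at 0.841, with 0.428 in WT; it was named after its value was seen, as was Bst2 for Lgals9 further on.

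Type I interferon genes were less even. The summed list of 18 genes gave tile correlations with Cd274 of 0.369 in KO and 0.432 in WT. Of its genes, 12 of 18 lay above 0 in both sections, again without the share of all genes. Zbp1, a nucleic acid sensor, led by the same rule at 0.790 in KO and 0.551 in WT, followed by Irf7 (0.568 in KO, 0.517 in WT) and Oasl2 (0.702 in KO, 0.500 in WT), while the median gene stood at 0.110 in KO and 0.288 in WT. Both lists hold genes that respond to either kind of interferon.

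**Figure D5:**
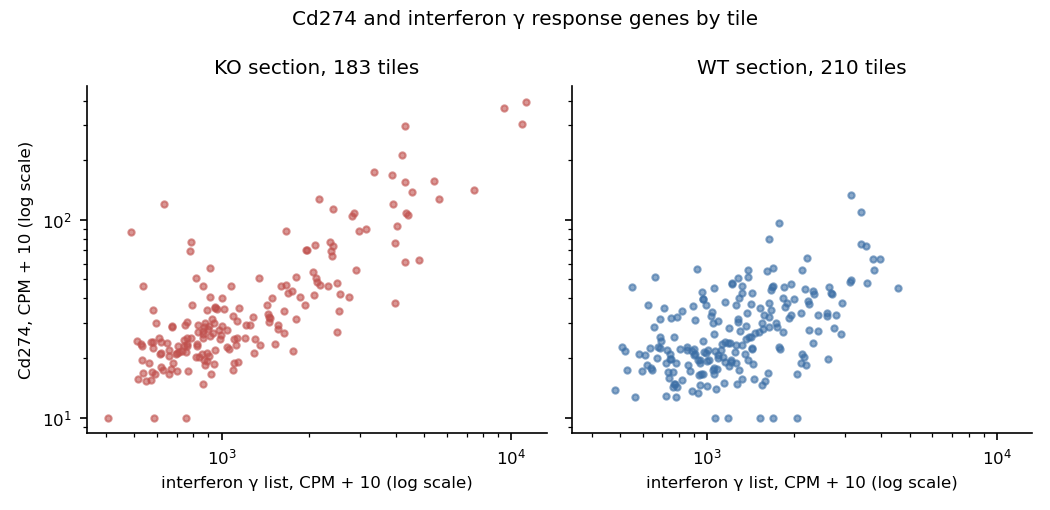
Cd274 against the summed interferon γ list, each as CPM + 10 on log axes, with 1 point per tile, KO section left and WT section right. Both values run together in KO tiles (Pearson 0.811 over 183 tiles) and the WT tiles less tightly (0.504 over 210 tiles).

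Among 9808 genes with at least 500 UMIs in each section, the patterns most like Cd274 over tiles, again by the lower of both sections, were those of Tapbp (0.819 in KO, 0.572 in WT), B2m (0.795 in KO, 0.564 in WT) and H2-K1 (0.769 in KO, 0.559 in WT), all parts of MHC class I presentation. Lgals9 was nearest by that rule to Oas1a (0.560 in KO, 0.684 in WT), Ifitm3 (0.549 in KO, 0.755 in WT) and Rtp4, which are interferon-induced antiviral genes, while Bst2 stood higher in KO (0.659) and lower in WT (0.521). Lgals9 and Cd274 themselves correlated at only 0.083 in KO and 0.375 in WT. Vsir was nearest to Alox5ap (0.939 in KO, 0.948 in WT), a leukotriene pathway gene, then Itgam, the CD11b integrin chain, and Pirb, an inhibitory myeloid receptor. Cd47 was nearest to Itgam (0.920 in KO, 0.915 in WT), Il4ra and Emilin2, and to Vsir itself at 0.888 in KO and 0.908 in WT. Cd276 was nearest to Mmp14 (0.487 in KO, 0.783 in WT), a membrane matrix protease, Snx24 and Pdgfrb, a receptor of pericytes and fibroblasts. Havcr2 had no close neighbour: the first, Cxcr4, stood at 0.329 in KO and 0.315 in WT, followed by Trbc2 and Limd2. Havcr2 and its known ligand Lgals9 correlated at 0.061 in KO and -0.033 in WT.

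Moran's I, the authors' deposited score of how alike neighbouring spots are, was highest for Vsir among the members, at 0.380 in KO and 0.485 in WT, with ranks of 919 of 19339 genes in KO and 529 of 19296 in WT. Lgals9 followed in KO at 0.313 and stood at 0.355 in WT, and Cd47 had 0.264 in KO and 0.403 in WT. Cd274 had 0.180 in KO and 0.114 in WT. Cd276 showed the widest gap, at 0.0496 in KO and 0.307 in WT, with 967 UMIs in KO and 1904 in WT. Lag3 had 0.107 in KO and 0.00099 in WT. Pdcd1 (0.053 in KO, 0.029 in WT), Havcr2 (0.047 in KO, 0.054 in WT) and Cd200 (0.037 in KO, 0.077 in WT) lay between 0.029 and 0.077, and Tigit was below 0 in both. The median gene had 0.0496 in KO and 0.0614 in WT, and 7 members in KO and 6 in WT lay above it. Recomputed on the grid, the score of the median gene was 0.0383 in KO and 0.0508 in WT. Once spots were thinned to 5000 UMIs it was 0.0010 in KO and 0.0058 in WT. That setting also left out the 356 KO and 395 WT spots with fewer UMIs, and the part of sparse counts was not tested.

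Known partners of the members were taken as a list of 31 ligands, receptors and related genes, of which 29 had at least 50 UMIs. Of these, 7 exceeded WT by 1.5-fold or more in KO tissue and 9 were lower by as much, with a median log2 ratio of -0.02. Against the 25.2% of all genes that were higher and 9.98% that were lower, 7 of 29 is close to the first share and 9 of 29 is above the second. Among the 7 higher ones, 4 lay under 2 times the probe background in a section. The others, named after their values were seen, were Ctla4 (145 UMIs in KO and 55 in WT, 2.48, 1.80 to 3.44), Cd28 (2.00, 1.67 to 2.40) and Icosl (1.68, 1.54 to 1.84). Cd226, the activating receptor that shares ligands with TIGIT, had the highest ratio, at 99 UMIs in KO and 31 in WT (3.001, 1.99 to 4.65), the WT count being 1.55 times the background. Thbs1, a matrix ligand of CD47, had the lowest, at 62.7 CPM in KO and 375 CPM in WT, 5.98-fold lower. Its quadrants spanned 36.6 to 125 CPM in KO and 61.3 to 1324 CPM in WT. Lgals3, a galectin that binds LAG-3, was 1.77-fold lower in KO, and Sirpa, the receptor of CD47, 1.35-fold lower (251 CPM in KO, 338 CPM in WT), with quadrant ranges that did not overlap. Cd47 and Sirpa correlated over tiles at 0.200 in KO and -0.002 in WT. Chosen as direct partners after their values were seen, Pdcd1lg2, the second ligand of PD-1, had 85 UMIs in KO and 67 in WT, and Cd200r1, the CD200 receptor, stood at 2.73 CPM in KO and 6.34 CPM in WT, 2.32-fold lower (2.00 to 2.70).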

How the data were processed

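Per the file headers, the authors deposited for each section a matrix of UMI counts, not normalized, made with Space Ranger 2.1.0; the submitters' processing notes also name featureCounts and mm10, with no role for each. Moran's I is a score from the authors' deposited spatial table; its p-values were not used. Each gene's counts were summed over spots and divided by all UMIs of its section (CPM). KO over WT ratios and ratios between spot classes carry exact conditional binomial (Clopper-Pearson) intervals at 95%, which cover counting error only; spots were not used as replicates. A fold of 1.5 marks a difference in either direction, over genes with at least 50 UMIs in both sections together. Rich and poor spots are the 25% with the highest and lowest share of a marker list, with members left out of every list. T cell spots were found after thinning to 5000 UMIs, and their ratios were standardized over 4 classes of macrophage share. Tiles hold 4 rows by 8 columns. The code was tested on simulated counts. TMM factors (1.08 for KO, 0.927 for WT) come from edgeR 4.0.16 in R 4.3.3; the rest used Python 3.11.15, numpy 2.4.6 and scipy 1.17.1. The members and lists were chosen with earlier results of these data known. All 10 members were named, along with partners of the highest and lowest ratio and the 3 with most UMIs, the 3 genes most like each member with at least 500 UMIs in each section, and the 3 closest genes of each interferon list. List genes absent from the matrices were not analysed here. Gene positions and promoters are from RefSeq, GRCm38.p6. With 1 section per genotype, precision is limited to that pair.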

Additional observations from a re-analysis of the deposited data

Results flagged for a closer look

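For 6 pairs of values a member lay on opposite sides of 1 in the sections. Each interval of the ratio between rich and poor spots left out 1, and the difference between sections was not tested. The pairs came from a screen of all 10 members. It covered the 5 lists compared for the lead, the hypoxia and interferon γ lists, the rim and T cell spots. The share of all genes that differ in this way was not computed. By melanocytic share Lgals9 had 1.17 in KO and 0.746 in WT. By endothelial share Cd274 had 1.65 in KO and 0.794 in WT, Pdcd1 1.82 in KO and 0.626 in WT, and Cd276 1.41 in KO and 0.500 in WT. By share of hypoxia genes Cd274 had 0.641 in KO and 1.34 in WT, and Cd47 0.847 in KO and 1.22 in WT. Summed hypoxia genes were 1.63 times and endothelial genes 0.755 times as high in the KO as in the WT section.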

How the results depend on the processing

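No paired analysis was possible because there is 1 section per genotype, and no replicate could be left out. The count of members at least 1.5-fold higher in KO, 2 as reported, was 1 with TMM factors, median-of-ratios factors, spots of at least 5000 UMIs, interior spots or melanocytic-rich spots (Tigit in each), 1 with the background taken off or a floor of 500 UMIs (Cd274), and 0 at a fold of 2. The count of lower members was 1 in melanocytic-rich spots (Vsir) and 3 among interior spots, where Pdcd1 joined at a ratio of 0.604. Members higher in T cell spots numbered 4 in KO and 2 in WT after standardizing over macrophage share, and 4 in KO and 3 in WT at a fold of 2. The share of all genes was not computed for these settings. Members higher in the WT rim numbered 1 with a rim of 4 steps and 0 at a fold of 2. The Cd274 correlation with interferon γ genes was 0.275 in KO and 0.180 in WT over spots, and 0.811 in KO and 0.504 in WT over tiles. With the type I list it was 0.091 in KO and 0.160 in WT over spots. Called ratios crossed 1 for Vsir in the highest matrix class (1.25), for Tigit in the highest macrophage class (0.993) and for Cd274 in the lowest endothelial class (0.956). After standardizing, those of Cd47 (0.899) and Cd276 (0.874) in WT T cell spots did so too. The cause was not tested. Classes by shared limits and those within spots poor in another list were chosen after seeing the data. The Cd274 ratio between sections ranged from 1.14 to 4.13 over 24 alternatives and that of Cd276 from 0.310 to 0.988. Classes by T cell and endothelial share were not among the alternatives, and some of their ratios lay outside these ranges. In the lowest endothelial class the ratio was 0.956 (0.809 to 1.13) for Cd274 and 0.171 for Cd276. It was 0.208 for Vsir, 0.345 for Pdcd1, 0.417 for Cd200 and 0.536 for Cd47 there. The other ratios between sections lay on both sides of 1 over the alternatives: 0.604 to 2.75 for Pdcd1, 0.800 to 4.26 for Lag3, 0.742 to 1.10 for Havcr2, 0.234 to 1.25 for Vsir, 0.659 to 1.12 for Lgals9, 0.560 to 1.46 for Cd200 and 0.797 to 1.72 for Cd47 over 24 alternatives each, and 0.993 to 5.77 for Tigit over 22. Low counts limit Pdcd1, Lag3 and Tigit.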
